A study of Rattus norvegicus with 20 samples.

Results

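The genes described here are the chemokines, the interleukins, their receptors, and tumour necrosis factor (Tnf), interferon gamma (Ifng) and the colony stimulating factors, as far as the arrays name them. They were chosen by a naming rule, with earlier results of these data known. The rule takes gene probes called Ccl, Ccr, Cxcl or Cxcr with a number, or Il with a number (Il6 and Il6st left out), and Tnf, Ifng, Csf1, Csf2, Csf3 and Csf2rb. This gave 103 genes on 121 probes, of 36458 genes or single probes on the array, and for each gene the probe of highest mean signal was used. No probe carried the name Csf2rb, and the value of its older name, Csf2rb1, is given separately and was not counted. The naming rule also takes in Il4i1, an amino acid oxidase, and Il1rapl1, a synaptic adhesion molecule, which are not cytokines or their receptors.

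The samples came from 10 rats aged 2 years with a stroke, 5 in a day 7 cohort and 5 others in a day 21 cohort, measured on 20 Agilent arrays that each hybridised 2 samples, in red and in green. All rats carried both tracer injections, CTb-Alexa 488 and CTb-Alexa 647, in the cortex beside the infarct, and the day is the survival period before the later of them. From each rat about 300 neurons labelled as sprouting and about 300 labelled as non-sprouting were captured by laser 7 days after that injection, and their RNA was amplified in 2 rounds with T7 polymerase. Both pools of a rat shared an array, and a repeat with exchanged dyes made up its pair of arrays, so n was 5 animals a day. No rat without a stroke was analysed here, and the sources used here do not give the strain. With pooled cells, more cells of a type and more RNA per cell cannot be told apart. Of the lists of cell type markers, all 10 neuronal markers were measured above background often enough to be tested, and so were all 7 astrocyte, all 7 oligodendrocyte and all 15 microglia and macrophage probes (Lyz and Lyz2 share 1). The mean level of the neuronal list, as log2 of its average intensity, ran from 12.46 to 12.70 in day 7 sprouting neurons, and that of the oligodendrocyte list from 11.95 to 12.96. The lists hold different probes, so these levels do not compare amounts of RNA or of cells.

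Chemokines are small secreted proteins that direct the migration of cells through G protein-coupled receptors, with CC ligands drawing mainly monocytes and T cells and many CXC ligands drawing neutrophils. Interleukins, Tnf and Ifng carry signals between immune cells, and after a stroke microglia and invading leukocytes are major sources of them, while Cxcl12 is also made by cells of the healthy brain. Many of these genes are switched on by NF-kB, a transcription factor that binds the kappa B motif.

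The 250 bases before the transcription start of 5 genes are given here. Ccl20, Ccl7 and Cxcl1 were chosen from the 15 members with a log2 ratio above 1 in day 7 replicate 1 because they hold a match to the motif, Il1rn is the member of highest ratio there with a promoter in the table and holds none, and the Cxcl2 ratio did not overlap between the days. The sequences are from RefSeq on assembly GRCr8, 5′ to 3′ along the gene's strand: chr9:91836909-91837158 (plus strand) for Ccl20, chr10:67513845-67514094 (plus strand) for Ccl7, chr14:17479322-17479571 (minus strand) for Cxcl1, chr14:17467256-17467505 (minus strand) for Cxcl2 and chr3:27520072-27520321 (plus strand) for Il1rn. Capitals mark matches to GGGANNNNCC, a loose form of the kappa B motif, or to its reverse complement GGNNNNTCCC.
Ccl20: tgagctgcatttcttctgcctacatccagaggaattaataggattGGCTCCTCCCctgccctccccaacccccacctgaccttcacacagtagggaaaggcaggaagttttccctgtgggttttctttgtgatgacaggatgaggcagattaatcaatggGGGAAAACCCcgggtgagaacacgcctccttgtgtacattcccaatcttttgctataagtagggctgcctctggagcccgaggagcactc
Ccl7: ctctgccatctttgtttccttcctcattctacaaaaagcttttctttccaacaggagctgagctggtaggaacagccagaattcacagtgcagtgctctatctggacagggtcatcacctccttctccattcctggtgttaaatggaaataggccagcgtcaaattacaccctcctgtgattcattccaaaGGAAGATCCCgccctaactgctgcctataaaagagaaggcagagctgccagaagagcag
Cxcl1: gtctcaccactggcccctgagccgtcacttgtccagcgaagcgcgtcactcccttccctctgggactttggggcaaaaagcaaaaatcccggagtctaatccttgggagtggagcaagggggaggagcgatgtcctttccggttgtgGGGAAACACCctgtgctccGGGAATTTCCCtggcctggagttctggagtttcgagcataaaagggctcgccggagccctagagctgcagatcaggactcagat
Cxcl2: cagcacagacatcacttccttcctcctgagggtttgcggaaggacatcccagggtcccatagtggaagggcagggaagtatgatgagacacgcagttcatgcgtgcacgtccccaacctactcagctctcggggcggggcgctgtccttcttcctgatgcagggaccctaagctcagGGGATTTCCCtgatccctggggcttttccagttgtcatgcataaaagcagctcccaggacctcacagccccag
Il1rn: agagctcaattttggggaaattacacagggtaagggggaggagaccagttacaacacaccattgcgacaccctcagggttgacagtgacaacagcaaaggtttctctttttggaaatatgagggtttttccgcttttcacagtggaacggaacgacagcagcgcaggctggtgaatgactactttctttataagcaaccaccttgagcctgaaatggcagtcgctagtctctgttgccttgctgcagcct
Matches on the 2 strands overlap in Cxcl1 and lie on the same bases in Cxcl2. The table held promoters of 77 of the 103 members, and 24 of them (31.2%) had a match in these 250 bases, against 5498 of all 33469 promoters (16.4%). A match is a run of letters, and binding was not measured here. Of the 15 members above a log2 ratio of 1 in day 7 replicate 1, 11 had a promoter in the table, and 4 of these 11 (36.4%) held a match (Ccl12, Ccl7, Ccl20 and Cxcl1). Il1rn, Ccl6, Ccr1, Il18bp, Il18, Il1b and Il1f8 (named Il36b in RefSeq) held none.

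Most of these genes gave dim spots. The median log2 intensity of the 103 genes was 6.78, against 7.08 over all genes, 72 of the 103 lay below the median of all genes, and 7 lay above 8. The brightest were Cxcl12, the chemokine that holds Cxcr4-bearing cells in place, at 13.04, and Ccl27, a skin chemokine, at 11.29. The Ccl27 gene overlaps Il11ra1 in RefSeq, so its signal may hold both. Others above 8 included Il11ra1, the interleukin 11 receptor, at 8.72, Il18, an interleukin of the interleukin 1 family, at 8.35, Il18rap, a subunit of its receptor, at 8.07 and Il1rn, the secreted antagonist of the interleukin 1 receptor, at 8.01. These are mean log2 intensities of different probes, so they rank spots and not amounts of RNA.

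Each array channel marks a spot as well above background or not. In sprouting neurons the members were well above background in 77.5% ± 9.98 (SD, n = 5) of measurements at day 7 and 54.8% ± 13.6 (SD, n = 5) at day 21. In non-sprouting neurons the shares were 74.3% ± 15.6 (SD, n = 5) and 72.1% ± 4.56 (SD, n = 5). Over all genes they were 83.3% and 66.0% in sprouting and 82.0% and 80.7% in non-sprouting neurons, so the members stood below all genes in each group, and the low day 21 share of sprouting neurons was found over the whole array.

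By animal, the day 7 shares of sprouting neurons were 93.7%, 70.9%, 78.2%, 76.7% and 68.0% and the day 21 shares 67.0%, 52.4%, 37.9%, 46.6% and 69.9%. In non-sprouting neurons they were 92.7%, 53.9%, 81.6%, 63.1% and 80.1% at day 7 and 77.7%, 75.7%, 69.4%, 71.4% and 66.5% at day 21. Day 7 replicate 1 was highest in both cell types, and the days overlapped in both. The share differed between red and green measurements, which within a cell type come from different arrays, so dye and array cannot be told apart. The arrays with exchanged dyes were higher in both cell types at day 7, and the other arrays at day 21. At day 7 it was 75.3% in red and 79.6% in green in sprouting neurons and 84.1% and 64.5% in non-sprouting neurons. At day 21 it was 66.6% in red and 42.9% in green in sprouting neurons (76.4% and 55.6% over all genes) and 70.1% and 74.2% in non-sprouting neurons. Single arrays ran from 10.7% to 95.1%, and the part of the dye in the share was not tested.

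**Figure D1:**
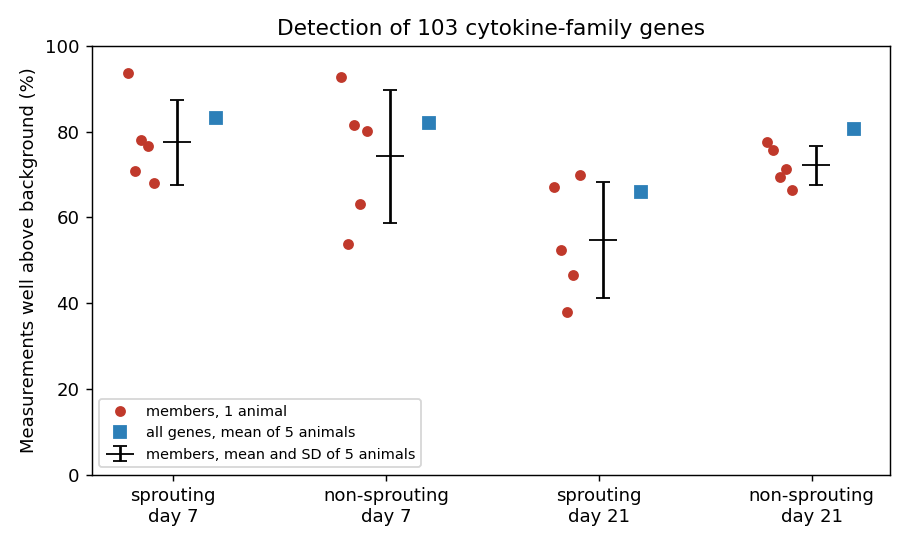
Share of measurements well above background (y axis, percent) for the 103 genes in sprouting and non-sprouting neurons at day 7 and day 21: red points are single animals (mean of both arrays), black marks the mean and SD of 5 animals, blue squares all genes. The members' mean lies below that of all genes in all 4 groups, and sprouting neurons at day 21 are lowest at 54.8%.

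Members differed widely in detection. Cxcl12, Ccl27 and Ccr1l1 were well above background in all 40 measurements (20 arrays with 2 channels), and at day 7 50.5% of members were in all 10 of sprouting neurons, against 60.3% of all genes, and 20.4% in all 10 of non-sprouting neurons, against 44.0%. At day 21 these shares were 3.88% against 16.8% and 30.1% against 50.7%. Il1f10 was seen in 2 of the 40, Ccl9 in 3 and Il20ra, Il21 and Il7 in 4 each. The counts of arrays well above background differed most between days for 4 members. For Il9r, the interleukin 9 receptor, the counts were 4, 9, 0 and 2 of 10 arrays. The order is sprouting and non-sprouting neurons at day 7 and then at day 21. For Il7r, the interleukin 7 receptor of lymphocytes, the counts were 9, 8, 2 and 5, for Cxcl10, an interferon-induced chemokine, 7, 9, 2 and 3, and for Cxcr3, the receptor of Cxcl10 on T cells, 6, 8, 2 and 3. Since no sprouting array of day 21 had Il9r well above background, no fold is given for it. These are counts of a flag, and the mean levels did not all fall. In sprouting neurons the mean log2 intensity of Il9r was 6.33 at day 7 and 6.37 at day 21. For Il7r it was 6.78 and 6.54, for Cxcl10 6.49 and 6.63 and for Cxcr3 6.41 and 6.22. In non-sprouting neurons, with genes in the same order, the means were 6.44 and 6.32, 6.58 and 6.68, 7.08 and 6.22, and 6.33 and 6.26.

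Testing required a clear signal: both arrays of 3 or more animals from the same day had to be well above background in the same cell type. This held for 81 of the 103 members and 30485 features in all. The 22 untested members include Ccl20, Cxcl1, Cxcl5, Ccr1 and Csf3. By role, 14 of 17 CC ligands were tested, 4 of 8 CXC ligands, 12 of 13 chemokine receptors, 30 of 34 interleukin receptors and binding proteins, 17 of 26 interleukins and 4 of 5 of Tnf, Ifng and the colony stimulating factors.

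At day 7 the ratio of sprouting over non-sprouting neurons, on the log2 scale, was set against 0. Here 0 of the 81 members passed an adjusted p of 0.05 in limma (background 0% of 30485 features), and the smallest member adjusted p in limma was 0.685. At an unadjusted p under 0.05 there were 10 members (12.3%), 7 higher and 3 lower in sprouting neurons, where 6.11% of all features were (3.38% higher and 2.73% lower). The median log2 ratio of the members was 0.014, against -0.0024 over all features, and 51 of 81 (63.0%) lay above 0, against 48.6%. Without day 7 replicate 1, 40 of 81 lay above 0, with a median of -0.0013, against 48.3% of all features. A log2 ratio beyond 0.5 in either direction was seen in 10 members and in 0.541% of all features, and without that animal in 2 members, Ccl2 and Ccl3, and in 0.272% of all features. Most of the large values came from 1 animal, as the values by role show. Without day 7 replicate 1 there were 7 members at an unadjusted p under 0.05, against 4.61% of all features.

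Among CC ligands, which recruit monocytes and T cells, 12 of 14 tested members had a mean day 7 ratio above 0, with a median of 0.22, and 3 had an unadjusted p under 0.05. Without replicate 1, 8 of the 14 lay above 0, with a median of 0.047. Ccl2, the main attractant of monocytes, had log2 ratios of 6.96, -0.053, 0.51, 1.44 and 0.55 in the day 7 animals in replicate order. Replicate 1 stood far above the others and replicate 4 was the next highest, while replicate 2, measured on its dye-swap array alone since the other spot was marked an outlier, lay near 0. The mean was 1.88 ± 2.89 (SD, n = 5), with adjusted p = 0.815 in limma, and 0.61 without replicate 1. At day 21 the values of Ccl2 were 0.27, -1.72, -0.14, 0.14 and -0.068, with replicate 2 lowest.

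Ccl3, a ligand of Ccr1 made by activated macrophages, had day 7 ratios of 3.77, -0.27, 0.96, 1.98 and 0.023. It was high in replicate 1, replicate 4 and replicate 3, and near or below 0 in the others, a mean of 1.29 ± 1.64 (SD, n = 5) (adjusted p = 0.791 in limma), or 0.67 without replicate 1. At day 21 its ratios were -0.09, -0.59, -0.58, -0.34 and 0.13. Only replicate 5 lay above 0 there, and the ranges of the days overlapped. RefSeq places a second locus over Ccl3 and Ccl6, so those signals are uncertain.

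Ccl4, the close relative of Ccl3, had day 7 ratios of 1.87, 0.056, 0.18, 0.52 and -0.0058 and day 21 ratios of -0.029, -0.069, -0.038, -0.094 and -0.022 (named after its values were seen). Its days did not overlap, and its day 7 mean of 0.53 ± 0.78 (SD, n = 5) was 0.19 without replicate 1. Ccl27, the brightest CC ligand, had 0.034 ± 0.18 (SD, n = 5) at day 7 and 0.028 ± 0.34 (SD, n = 5) at day 21, and Ccl11, an attractant of eosinophils, -0.065 ± 0.12 (SD, n = 5) and 0.018 ± 0.062 (SD, n = 5).

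Of the CXC ligands only 4 could be tested, and 3 of them lay above 0 at day 7. Cxcl2, a neutrophil attractant, had day 7 ratios of 0.66, 0.15, 0.05, 0.36 and 0.055 and day 21 ratios of 0.043, -0.07, -0.00062, 0.014 and -0.05. As the mean of both arrays, Cxcl2 lay above 0 in all 5 day 7 animals, highest in replicate 1, and above all day 21 values. On dye-swap arrays alone, day 7 replicates 3 and 5 lay below 0 (-0.063 and -0.044). At day 21 its forward arrays averaged 0.15 and its dye-swap arrays -0.17. The gap between the days, from 0.043 to 0.05, is small beside this spread between orientations. The day 7 mean was 0.25 ± 0.26 (SD, n = 5), with an unadjusted p of 0.00799 and adjusted p = 0.712 in limma, and it was 0.15 without replicate 1. Cxcl10 ran the other way at day 7, with -1.28, -1.23, -0.27, -0.0032 and -0.17. It lay below 0 in all 5 animals, most in replicates 1 and 2, a mean of -0.59 ± 0.61 (SD, n = 5) (adjusted p = 0.835 in limma). The Cxcl10 gene overlaps Art3 in RefSeq. Cxcl5 (Cxcl6 in RefSeq), another neutrophil attractant and untested, had 0.20, 0.037, 0.064, 0.04 and 0.016, highest in replicate 1.

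**Figure D2:**
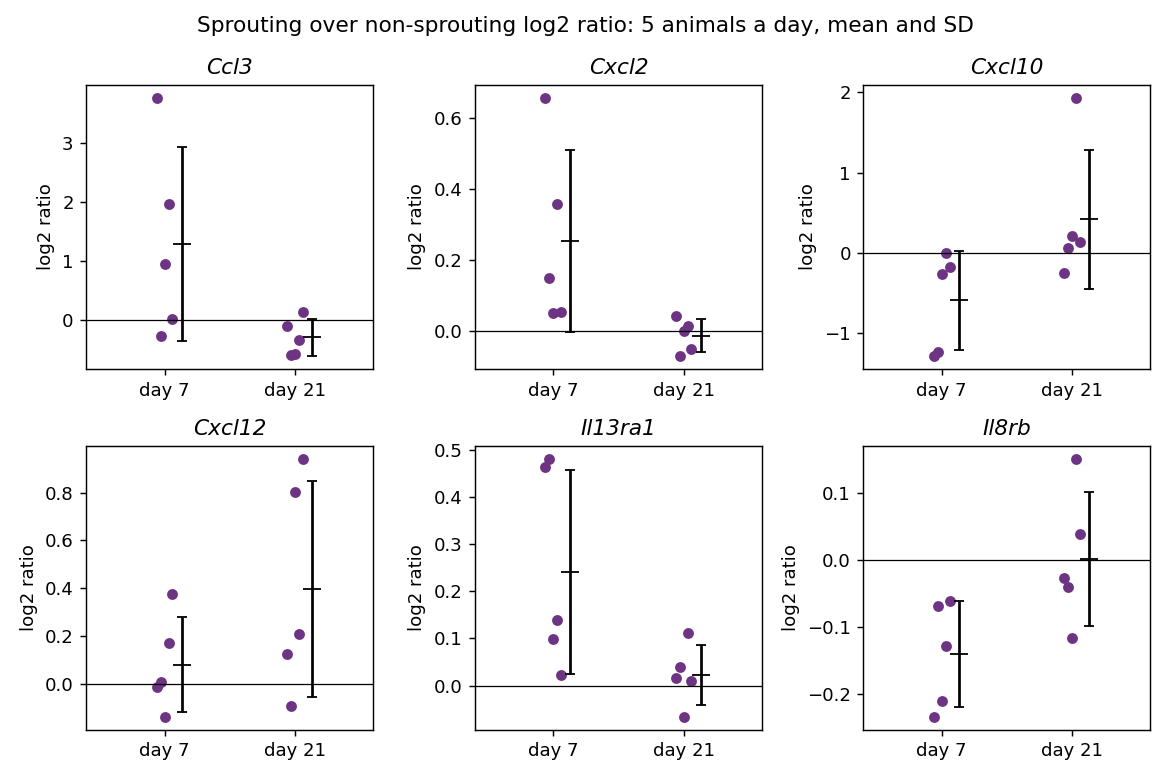
Log2 ratio of sprouting over non-sprouting neurons (y axis, scales differ between panels) at day 7 and day 21 for 6 members; points are the 5 animals of a day in replicate order, bars the mean and SD. Ccl3 and Cxcl2 are highest in day 7 replicate 1, Cxcl10 is at or below 0 in the day 7 animals and highest at 1.93 in day 21 replicate 4, and the Cxcl2 values of the days do not overlap.

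Of 12 tested chemokine receptors 5 lay above 0 at day 7, and 1 had an unadjusted p under 0.05. Il8rb, the file's name for Cxcr2, the receptor of Cxcl1 and Cxcl2 on neutrophils, had -0.23, -0.068, -0.21, -0.13 and -0.061 at day 7. All 5 animals lay below 0, as did 10 of 10 arrays, and the mean was -0.14 ± 0.079 (SD, n = 5), with an unadjusted p of 0.00937 and adjusted p = 0.73 in limma. Ccr1l1, a Ccr1-like receptor gene overlapping Ccr3, had -0.022 ± 0.047 (SD, n = 5), Ccr9, a T cell homing receptor, -0.014 ± 0.034 (SD, n = 5) and Cxcr3 0.086 ± 0.12 (SD, n = 5).

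Of 30 tested interleukin receptors and binding proteins, 18 had a day 7 ratio above 0 (12 without replicate 1), with a median of 0.0041, and 5 an unadjusted p under 0.05. Il13ra1, a receptor subunit for interleukins 4 and 13, had the smallest p of all members. Its ratios were 0.46, 0.48, 0.10, 0.14 and 0.022 at day 7 and 0.015, 0.04, -0.066, 0.11 and 0.01 at day 21. All day 7 animals lay above 0, replicates 1 and 2 highest, and the days overlapped. The day 7 mean was 0.24 ± 0.22 (SD, n = 5) (adjusted p = 0.685 in limma), 10 of 10 arrays were above 0, and the other Il13ra1 probes had 0.36, 0.047 and -0.0010. Il13ra2, a decoy receptor of interleukin 13, had the opposite sign, -0.38, 0.059, -0.22, -0.13 and -0.12, with 4 of 5 animals below 0 (adjusted p = 0.791 in limma).

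Il1rn had day 7 ratios of 4.46, -0.03, 0.0012, 1.68 and -0.029 and day 21 ratios of -0.13, 0.057, -0.18, 0.00093 and -0.14. Replicates 1 and 4 were high and the other 8 animals lay near 0. Its day 7 mean was 1.22 ± 1.96 (SD, n = 5) (adjusted p = 0.817 in limma), 0.40 without replicate 1, and its second, dimmer probe had 0.18. Il1rn overlaps Il36b in RefSeq, so its signal is uncertain. Il11ra1 had -0.027 ± 0.20 (SD, n = 5) and Il18rap -0.043 ± 0.088 (SD, n = 5) at day 7. The mean was 0.20 ± 0.31 (SD, n = 5) for Il7r (0.066 without replicate 1), -0.12 ± 0.10 (SD, n = 5) for Il9r and, for Il22ra2, a soluble binding protein of interleukin 22, -0.12 ± 0.17 (SD, n = 5) (-0.049 without replicate 1).

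Of 17 tested interleukins 11 lay above 0 at day 7, with a median of 0.014, and 0 had an unadjusted p under 0.05. Il1b, the interleukin 1 beta gene, had 2.62, -0.13, -0.21, 0.54 and -0.031, with replicate 1 alone above 1. Il18 had 1.38, -0.93, 0.20, 0.50 and -0.18, with replicate 1 highest and replicate 2 lowest. Il3, a growth factor of blood cell precursors, had 0.053 ± 0.092 (SD, n = 5) and Il12a, a subunit of interleukin 12, 0.052 ± 0.13 (SD, n = 5).

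Of the 4 tested among Tnf, Ifng and the colony stimulating factors 2 lay above 0 at day 7 (1 without replicate 1), and 0 had an unadjusted p under 0.05. The day 7 ratios of Tnf were -0.061, 0.069, 0.0092, -0.17 and 0.013 and the day 21 ratios -0.042, 0.19, -0.043, 0.075 and -0.11, with animals on both sides of 0. Its log2 intensity was 6.32, and it was well above background on 7, 7, 4 and 7 of 10 arrays in sprouting and non-sprouting neurons at day 7 and at day 21, in that order. Ifng had 0.0089 ± 0.051 (SD, n = 5) at day 7 and 0.059 ± 0.033 (SD, n = 5) at day 21, where all 5 animals lay above 0 (adjusted p = 0.917 in limma). At day 21 its forward arrays averaged -0.011 and its dye-swap arrays 0.14, so the sign depends on the dye orientation. Csf1, a growth factor of microglia and macrophages, had 0.53, -0.93, 0.40, 0.21 and 0.21 at day 7, with replicate 2 alone below 0, and 0.054 ± 0.20 (SD, n = 5) at day 21. Csf2 had -0.053 ± 0.10 (SD, n = 5) and -0.035 ± 0.064 (SD, n = 5), near background. Csf3, the growth factor of neutrophils, was untested, and on non-sprouting arrays of day 21 it was not well above background on any of 10. The day 7 mean of non-sprouting neurons, with 5 of 10 arrays above background, was at least 1.01-fold higher. This bound takes, on each day 21 array, the higher of the Csf3 signal and the lowest signal called well above background. Single animals overlapped, with log2 intensities of 6.20 to 6.42 at day 7 and 6.02 to 6.67 at day 21. The bound thus shows no difference between the days.

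Csf2rb, the shared receptor subunit for interleukins 3 and 5 and Csf2, was on the array as Csf2rb1, outside the naming rule. Its ratios were -0.22, -0.10, -0.17, -0.15 and -0.10 at day 7 and -0.03, -0.079, -0.091, 0.054 and -0.057 at day 21. All day 7 animals lay below 0, and at day 21 replicate 4 was above 0. The day 7 mean was -0.15 ± 0.033 (SE), with an adjusted p of 0.547 in limma.

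The largest values of the family came from 1 rat. In day 7 replicate 1, 15 of 103 members (14.6%) had a log2 ratio above 1 on average and above 0 on both arrays, against 1.65% of all 36458 features. The SD of its ratios over the tested members was 1.24, against 0.373 over all features. In day 7 replicate 4 the count was 4 members (3.88%, against 0.0603% of all features), with Ccl3, Il1rn and Ccl2 among them, and all 4 were also among the 15. In day 21 replicate 4 it was 1, Cxcl10 (0.971%, against 0.0302%), and in the other 7 animals 0. Of all features 0.181%, 0.0357% and 0.0165% passed in day 7 replicates 2, 3 and 5, and 0.0274%, 0.0411%, 0.0329% and 2.04% in day 21 replicates 1, 2, 3 and 5. The 745 features of day 21 replicate 5 thus held no member.

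**Figure D3:**
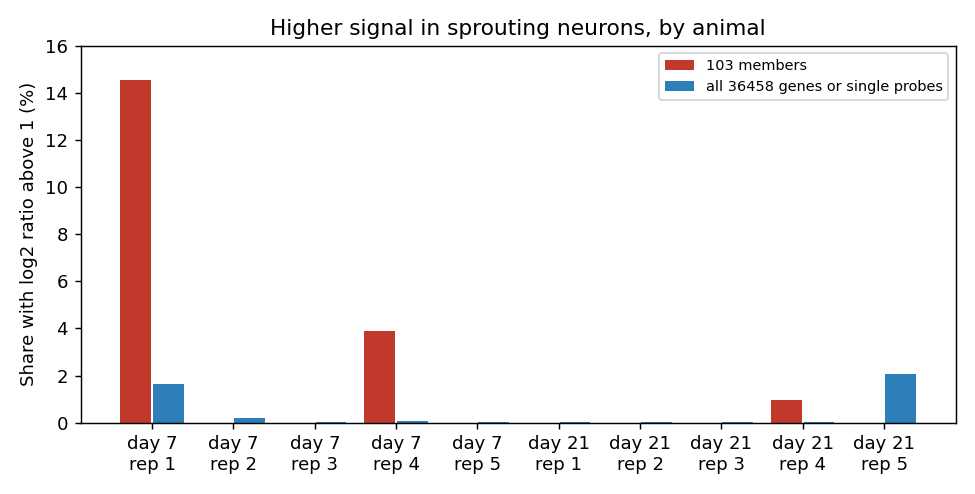
Share of genes with a log2 ratio above 1 on average and above 0 on both arrays (y axis, percent) in each of the 10 animals, for the 103 members (red) and all 36458 genes or single probes (blue). Day 7 replicate 1 has 14.6% of members against 1.65% of all, and day 21 replicate 5 has 0 members against 2.04% of all.

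The 15 genes were chosen by these values, so the values are a description and were not tested, and Ccl4, Ccl6, Ccl7, Ccl12, Ccl20, Il18bp, Ccr1 and Cxcl1 are named here only because of them. Ccl2 was highest, at 6.96, or 125-fold, with 7.11 on the forward and 6.82 on the dye-swap array. Its ratio was the second highest of all features in that animal by rank. Its log2 intensity there was 14.21 in sprouting and 7.25 in non-sprouting neurons, while the highest sprouting value among the other 9 animals was 8.67. The difference thus lay in the sprouting channel.

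Il1rn followed at 4.46 (22-fold), then Ccl20, the ligand of Ccr6 on lymphocytes, at 4.26, Ccl7, which draws monocytes, at 3.89 and Ccl3 at 3.77. Ccl20 was not well above background in the non-sprouting channel on any day 7 array, so its ratio rests on a signal at background. The day 7 mean of sprouting neurons was at least 1.68-fold higher, with 2 of 10 sprouting arrays above background, both of replicate 1. Without replicate 1 the day 7 mean log2 ratio of Ccl20 was -0.042, so the bound rests on that animal. The attractants Ccl12 (2.95), Ccl6 (2.83) and Ccl4 (1.87) were also high, as were Il1b (2.62) and Il18bp, which binds interleukin 18 (2.38). Below them were the receptor Ccr1 (1.83), and then Il18 (1.38), the neutrophil attractant Cxcl1 (1.14) and Il1f8 (1.05).

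By role, 7 of the 15 are CC ligands and 3 are interleukins. Of these 3, Il1f8 overlaps Il1rn in RefSeq, so its signal may hold both. Both array orientations of this animal gave each of the 15 a value above 1, and 0 of its spots for them were saturated. In the authors' deposited table the same animal had log2 ratios of 6.94 for Ccl2, 4.45 for Il1rn and 3.76 for Ccl3. In the other 9 animals the median of Ccl2 was 0.14, of Il1rn -0.029 and of Ccl7 -0.054.

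**Figure D4:**
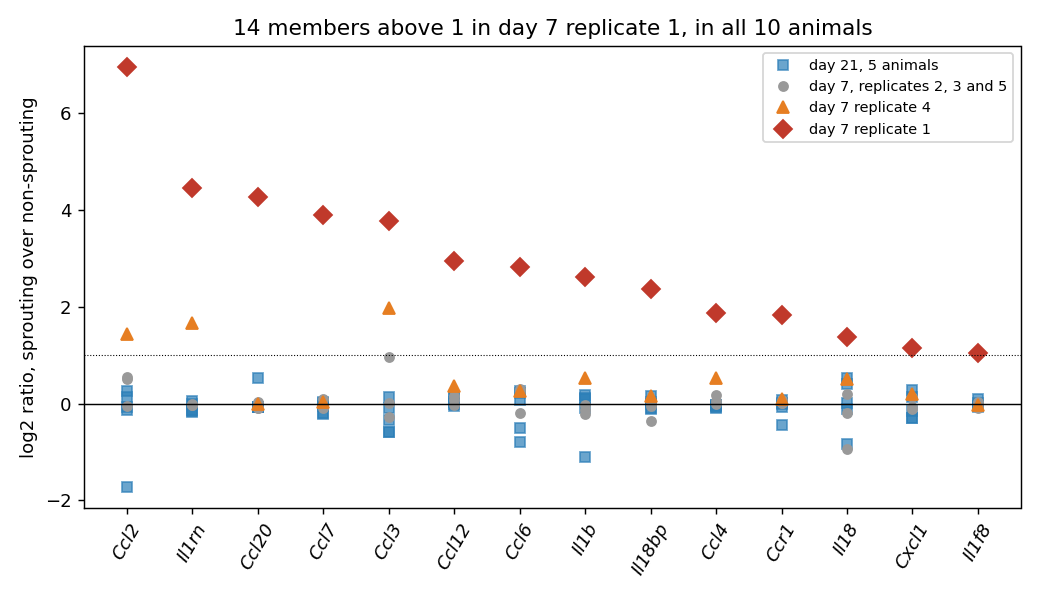
Log2 ratio of sprouting over non-sprouting neurons (y axis) of 14 of the members above 1 in day 7 replicate 1, in all 10 animals; red diamonds are day 7 replicate 1, orange triangles day 7 replicate 4, grey points the other day 7 animals and blue squares the 5 day 21 animals. The dotted line is at 1; Ccl2 reaches 6.96 in replicate 1, and replicate 4 lies above 1 for Ccl2, Il1rn and Ccl3.

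A few markers of leukocytes were also high in this animal. Of 15 microglia and macrophage probes 3 had a log2 ratio above 1 there: Lyz, the lysozyme gene, at 4.21, Cd68, a lysosomal protein of phagocytes, at 1.45 and Tyrobp, a signalling adaptor of myeloid cells, at 1.30. The median of the list was 0.027, and C1qa (-0.46), Cx3cr1 (-0.36), P2ry12 (-0.046) and Cd74 (-0.93) were below 0. The mean level of the list, as log2 of its average intensity, was highest in that animal in both cell types, 11.98 in sprouting and 11.45 in non-sprouting neurons, against medians of 10.29 and 10.13 over the day 7 animals.

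In the same animal 1 of 10 lymphocyte probes was above 1, Cd3g of T cells at 2.88, with a list median of 0.22, and 2 of 7 neutrophil and blood probes were, Hbb, a globin gene, at 2.28 and S100a9 of neutrophils at 1.67, with a list median of 0.53. The mean level in sprouting neurons of day 7 was highest in that animal for both lists, 8.0 against a median of 7.34 for lymphocytes and 8.25 against 7.69 for neutrophils and blood. In non-sprouting neurons of day 7 the lists ran from 7.17 to 7.41 and from 7.29 to 7.97, and that animal was lowest in both. Of the lymphocyte markers Cd4 was not well above background on any day 21 array. None of the 7 astrocyte, 7 oligodendrocyte, 7 endothelial and 10 neuronal probes was above 1. In day 7 replicate 4 Lyz had 1.36 and was the 1 microglia and macrophage probe above 1. Day 7 replicate 1 was also the only animal of its scan batch. The part of these markers and of the batch in the members' values was not tested.

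At day 21 the comparison of sprouting with non-sprouting neurons gave 0 of 81 members past an adjusted p of 0.05 in limma (background 0%), with a smallest member adjusted p of 0.917. At an unadjusted p under 0.05 there were 4 members (4.94%), all higher in sprouting neurons, against 4.79% of all features (1.88% higher and 2.91% lower). The median member ratio was -0.0029, 39 of 81 lay above 0, and 0 members were beyond 0.5. The count is thus near the background.

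Cxcl12 had the largest of these, with 0.12, -0.094, 0.80, 0.21 and 0.94 at day 21 and -0.013, 0.0055, -0.14, 0.17 and 0.38 at day 7. At day 21 4 of 5 animals lay above 0, replicates 3 and 5 far above the others, and the days overlapped. The day 21 mean was 0.40 ± 0.45 (SD, n = 5), with an unadjusted p of 0.0172 and adjusted p = 0.917 in limma, and it was 0.26 without replicate 5. Forward arrays averaged 0.34 and dye-swap arrays 0.45, and 9 of 10 arrays lay above 0. Its level in non-sprouting neurons was 13.22, 13.29, 12.76, 12.31 and 12.32 in the day 21 animals, and in sprouting neurons 13.35, 13.19, 13.57, 12.51 and 13.26. Replicates 3 and 5, the animals of high ratio, had lower non-sprouting levels than replicates 1 and 2, while replicate 4 was low in both cell types.

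Il12a had 0.13, 0.19, 0.069, 0.22 and 0.12 at day 21, above 0 in all 5 animals, with a mean of 0.15 ± 0.061 (SD, n = 5) (adjusted p = 0.917 in limma). Forward arrays gave a mean of 0.0012 and dye-swap arrays 0.29. Ccr3, the eotaxin receptor, had a day 21 mean of 0.12 ± 0.11 (SD, n = 5) and Cxcl9, an interferon-induced T cell attractant, 0.086 ± 0.075 (SD, n = 5). On forward arrays alone Ccr3 had -0.015 and Cxcl9 -0.14, so the direction of both depends on the dye orientation. In 1 direction in all 5 animals were 9 of 81 members at day 7 (11.1%, against 11.1% of all features) and 6 at day 21 (7.41%, against 6.29%).

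The day 21 ratio minus the day 7 ratio tests for a change with time. In limma 0 members passed (background 0%), with a smallest member adjusted p of 0.919. At an unadjusted p under 0.05 there were 8 members (9.88%), 4 higher and 4 lower at day 21, against 4.09% of all features (1.7% higher and 2.4% lower). Il22ra2 had a difference of 0.26 ± 0.094 (SE), from day 7 ratios of -0.40, 0.041, -0.11, -0.074 and -0.049 to day 21 ratios of 0.076, 0.34, 0.10, 0.23 and -0.032. Its day 7 replicate 1 was lowest and 4 of the 5 day 21 animals lay above 0. The dimmer Il22ra2 probe, which did not pass the filter, had a difference of 0.040 and a day 7 ratio of 0.027. Cxcl2 had -0.27 ± 0.11 (SE), Ccl3 -1.58 ± 0.66 (SE) and Cxcl10 1.01 ± 0.42 (SE). Without day 7 replicate 1 the difference was -0.17 for Cxcl2 and -0.96 for Ccl3.

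Cxcl10 had day 21 ratios of -0.26, 0.066, 0.21, 1.93 and 0.13, with replicate 4 far above the others, and it was well above background on only 2 and 3 of 10 day 21 arrays. Without day 21 replicate 4 its difference was 0.63. Day 7 replicates 4 and 5 and day 21 replicate 1 made up the 1 scan batch shared by the days. Within it the difference was 0.14 for Il22ra2, -0.16 for Cxcl2, -1.09 for Ccl3 and -0.17 for Cxcl10, which is the opposite sign for Cxcl10. Without day 7 replicate 1 there were 5 members at an unadjusted p under 0.05, against 3.40% of all features. The ratios of the days did not overlap for 2 members, Ccl4 and Cxcl2 (2.47%, against 0.955% of all features).

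Over both days together 0 members passed in limma, where 1 feature of 30485 did (0.00328%), and 5 members (6.17%) had an unadjusted p under 0.05, 3 higher and 2 lower, against 6.48% of all features (3.32% higher and 3.17% lower). Il12a had a mean ratio of 0.10 ± 0.034 (SE) (adjusted p = 0.724 in limma), or -0.017 on forward arrays only, Il13ra1 0.13 ± 0.048 (SE), Il13ra2 -0.10 ± 0.042 (SE) and Cxcl12 0.24 ± 0.10 (SE). Their adjusted p in limma was 0.724 to 0.757.

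The level of each cell type was then compared between the days, as day 21 minus day 7 on the log2 intensity scale. In sprouting neurons 0 of 81 members passed an adjusted p of 0.05 in limma (background 0%), with a smallest member adjusted p of 0.173. At an unadjusted p under 0.05 there were 12 members (14.8%), 2 higher and 10 lower at day 21, against 15.5% of all features (4.65% higher and 10.8% lower). In non-sprouting neurons 0 passed (background 0%), with a smallest member adjusted p of 0.115, and 11 members (13.6%) had an unadjusted p under 0.05, 4 higher and 7 lower, against 16.2% of all features (5.13% higher and 11.1% lower). The median member difference was -0.12 in sprouting and -0.066 in non-sprouting neurons, against -0.060 and -0.061 over all features. Both counts are near the background. Without day 21 replicate 1, 2 members passed an adjusted p of 0.05 in limma in sprouting neurons, Il3 and Il18r1, and 4 in non-sprouting neurons, with Il3, Il18rap and Ccr1l1 among them, and 209 and 563 of all 30485 features did.

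The same 5 members, Il3, Il18rap, Il18r1, Ccr1l1 and Il8rb, were among the 6 of smallest p in both cell types. Both cell types of a rat share its arrays, so these are not independent. Il3 had log2 intensities in sprouting neurons of 6.93, 6.75, 6.77, 6.85 and 7.24 at day 7 and 7.38, 8.23, 7.41, 8.14 and 7.93 at day 21, with no overlap. In non-sprouting neurons they were 6.75, 6.65, 6.80, 6.81 and 7.27 and 7.21, 8.0, 7.38, 8.0 and 8.13, where day 7 replicate 5 overlapped with day 21 replicate 1. The difference was 0.91 ± 0.19 (SE) (1.88-fold) in sprouting and 0.89 ± 0.20 (SE) in non-sprouting neurons, with adjusted p = 0.173 and 0.116 in limma. Some other dim members were also high in day 21 replicates 4 and 5, which shared a scan batch. In sprouting neurons of day 21 Ifng had 6.55, 6.91, 6.45, 7.13 and 7.69. Il2, named after its values were seen, had 6.43, 6.80, 6.21, 7.53 and 8.47. Of the 81 tested members, 27 had a difference above 0 in sprouting neurons and 54 below 0. The part of the batch in the Il3 levels was not tested.

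Il18rap and Il18r1 encode the 2 subunits of the interleukin 18 receptor. Il18rap had sprouting levels of 8.36, 8.30, 8.28, 8.59 and 9.0 at day 7 and 8.12, 7.10, 7.43, 7.67 and 7.78 at day 21, and all day 7 animals lay above all day 21 animals. The difference was -0.89 ± 0.20 (SE) in sprouting and -0.97 ± 0.22 (SE) in non-sprouting neurons (adjusted p = 0.173 and adjusted p = 0.117 in limma). Its dimmer probe, which did not pass the filter, ran the other way, at 0.80 and 0.85. Il18r1 had 6.92, 6.81, 7.04, 6.90 and 7.04 and 6.79, 6.32, 6.47, 6.27 and 6.35 in sprouting neurons, without overlap, a difference of -0.50 ± 0.12 (SE), and -0.42 ± 0.11 (SE) in non-sprouting neurons.

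The sprouting levels of Ccr1l1 were 7.79, 8.03, 8.07, 8.06 and 8.33 at day 7 and 7.76, 7.28, 7.64, 7.26 and 6.83 at day 21, again without overlap, a difference of -0.70 ± 0.18 (SE), and -0.70 ± 0.17 (SE) in non-sprouting neurons (adjusted p = 0.173 and adjusted p = 0.117 in limma). Il8rb had differences of -0.39 ± 0.12 (SE) and -0.53 ± 0.12 (SE), and Cxcl2 -0.51 ± 0.13 (SE) and -0.25 ± 0.11 (SE). Levels of the days did not overlap for 7 members in sprouting neurons (8.64%, against 4.96% of all features): these were Ccr1l1, Cxcl2, Cxcr3, Il18r1, Il18rap, Il3 and Il8rb. In non-sprouting neurons it was 4 (4.94%, against 5.96%): Ccr1l1, Il18r1, Il18rap and Il8rb.

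**Figure D5:**
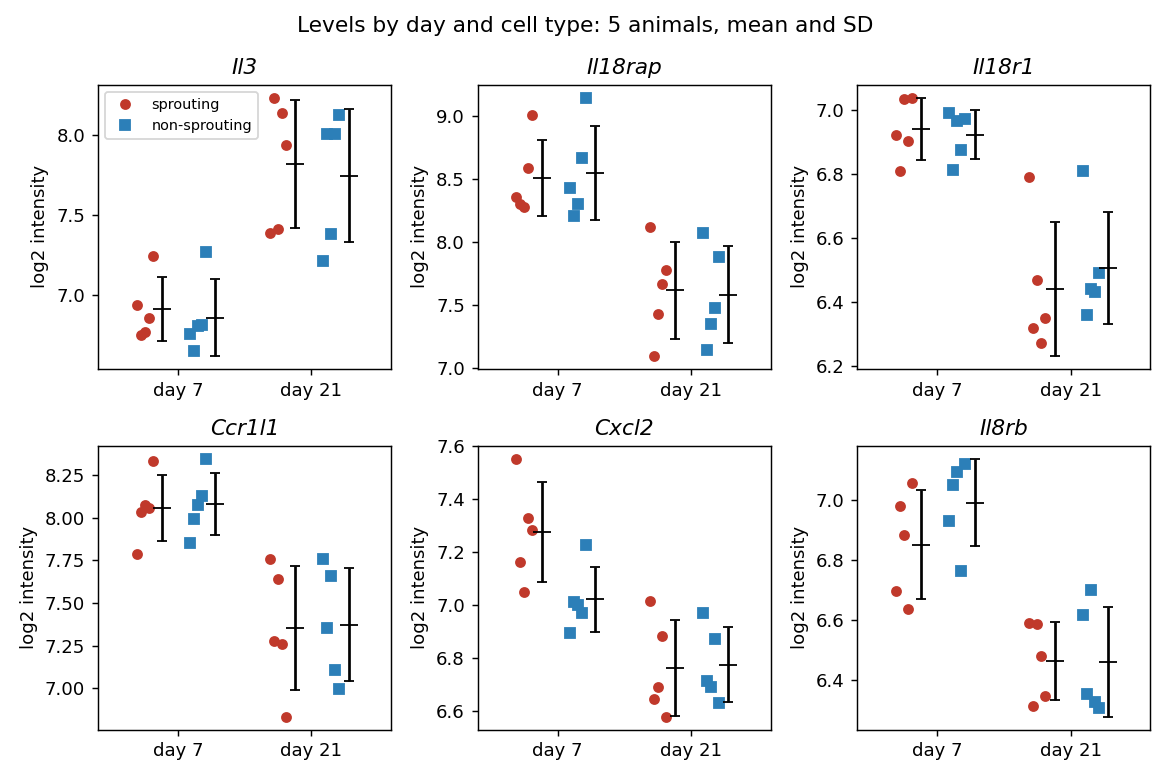
Log2 intensity (y axis, scales differ between panels) of 6 members in sprouting (red circles) and non-sprouting neurons (blue squares) at day 7 and day 21; points are 5 animals in replicate order, bars the mean and SD. Il3 is higher and the other 5 are lower at day 21 in both cell types, with adjusted p of 0.115 or more in limma.

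Scan batches nearly followed the days. Within the batch that held both, the day 21 animal minus the mean of the 2 day 7 animals was 0.33 for Il3, -0.68 for Il18rap, -0.18 for Il18r1, -0.44 for Ccr1l1 and -0.26 for Il8rb in sprouting neurons. In non-sprouting neurons it was 0.17, -0.83, -0.11, -0.48 and -0.33 in the same order. All kept their direction at a smaller size. With the batch as a fixed block the difference between days rests on these same animals, so that fit gives the same values and is no separate check.

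Other genes of these pathways were described from 5 lists of receptors, adaptors and signalling proteins, with 0 genes past an adjusted p of 0.05 in limma in the day 7 and day 21 ratios. Over all features 48.6% lay above 0 at day 7 and 6.11% had an unadjusted p under 0.05. At day 7, 10 of 12 tested other chemokines and atypical receptors lay above 0, with 0 at an unadjusted p under 0.05, and the median of the list, 0.19 in replicate 1, ran from -0.030 to 0.037 across replicates 2 to 5. Of 8 receptors for Tnf, interferons and colony stimulating factors 5 lay above 0 (list median 0.30 in replicate 1 and -0.18 to 0.10 in the others), with 2 at an unadjusted p under 0.05, Tnfrsf1a (0.29) and Ifngr2 (0.22). Of 10 JAK and STAT genes 7 lay above 0, and Jak1, a kinase of many cytokine receptors, had 0.21 and Stat2 -0.15, both at an unadjusted p under 0.05.

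Of 17 genes of NF-kB and interleukin 1 receptor signalling 15 lay above 0 at day 7, 3 of them at an unadjusted p under 0.05: Irak4, a kinase of that receptor, at 0.31, Rel at 0.25 and Nfkbib at 0.10. Their median, 0.15 in replicate 1, ran from -0.0015 to 0.040 across replicates 2 to 5. At day 21 9 of the 17 lay above 0, and Map3k7 (-0.11) and Rela (-0.11) had an unadjusted p under 0.05. Over all features 49.99% lay above 0 at day 21, and 4.79% had an unadjusted p under 0.05. Of 5 SOCS feedback genes 2 lay above 0 on each day. In day 7 replicate 1, chosen after their values were seen, the platelet chemokine Pf4 had 3.81, Cklf (on the array as Cklf1) 2.13 and the Tnf receptor Tnfrsf1b 1.37.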

How the data were processed

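RNA of laser-captured sprouting and non-sprouting neurons of 10 rats was measured on 20 arrays of 2 colours. Spots were read with Agilent Feature Extraction 9.1.3.1, a version the file headers give. The deposited mean and background intensity of each spot was used, on a linear scale, with the flags for outliers and for signals well above background. The deposited log10 ratio of red over green (Feature Extraction's own correction, per the file headers) was an alternative, as was the authors' deposited table of log2 ratios. That table was read as red over green because each column correlated at 0.892 to 1.00 with the ratios computed here, and how it was normalized and centred is unknown. A further 20 columns in it were not used.

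In limma 3.58.1 (R 4.3.3), normexp with an offset of 50 corrected the background and loess the dyes, with control spots at weight 0 and outlier spots missing. Ratios were turned to sprouting over non-sprouting and the 2 arrays of an animal averaged. Levels used each channel after loess and Aquantile scaling. The tests were limma's lmFit and eBayes with both days in 1 fit and Benjamini-Hochberg adjustment at 0.05 over 30485 features, checked on simulated data. The number of arrays limits the precision.

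Members and lists were chosen with earlier results of these data known. The genes named are the 3 brightest of each role, the 4 of smallest p in each comparison, the 4 whose detection differs most between days, and Tnf, Ifng, Csf1, Csf2, Csf3 and Csf2rb; exceptions are marked, and 1 gene is not reported here. Member names matched RefSeq by accession (73), symbol (26) or synonym (4). Probe sequences were not used here. Alternatives covered background, filters, probes, normalization, dye orientation, scan batch and left-out animals.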

Additional observations from a re-analysis of the deposited data

Results flagged for a closer look

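In groups of 5 animals, 19 of 102 groups checked held a value set apart from the others by Dixon's criterion at 95%. Some genes were checked because of their high value in 1 animal, so this count cannot be set against a chance rate. Of the 19, 12 were log2 ratios of day 7 replicate 1: Ccl2 6.96, Ccl20 4.26, Ccl7 3.89, Ccl12 2.95, Ccl6 2.83, Il1b 2.62, Il18bp 2.38, Ccl4 1.87, Ccr1 1.83, Cxcl1 1.14, Il7r 0.73 and Cxcl5 0.20. Ccl4, Ccl6, Ccl7, Ccl12, Ccl20, Il18bp, Ccr1 and Cxcl1 were named because they were high in that animal, so they are not independent cases.

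Day 21 replicate 2 stood apart with -1.72 for Ccl2 and 0.54 for Ccl20. Day 21 replicate 4, whose dye-swap array had 20.8% of spots well above background in the sprouting channel and 4088 spots marked as outliers, stood apart with 1.93 for Cxcl10 and -0.72 for Il7r. Il1b had -1.09 in day 21 replicate 1 and Csf1 -0.93 in day 7 replicate 2. The non-sprouting log2 intensity of Il3 was 7.27 in day 7 replicate 5.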

How the results depend on the processing

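In each of the 4 ratio comparisons, 0 members passed in limma under every alternative run. Leaving out 1 animal at a time gave 0 to 2 members in the sprouting level comparison and 0 to 4 in the non-sprouting one. The counts of 2 and 4 came without day 21 replicate 1, the only day 21 animal scanned with day 7 animals. Of the results for single genes 513 kept direction and side of the threshold, 5 reversed and 5 passed the threshold, and no cause was tested. Reversed were Ccr3 at day 21 (-0.023 with Feature Extraction's ratios and -0.015 on forward arrays only), and Cxcl9 at day 21 (-0.14) and Il12a over both days (-0.017) on forward arrays only. The day difference of Cxcl10 also reversed with scan batch as a fixed block (-0.17), which is the within-batch value given above. With the laxer flag for positive and significant signals the shares above background were 91.8% and 81.7% in sprouting neurons at day 7 and day 21 and 91.9% and 88.8% in non-sprouting neurons.

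The replicate numbers are names only: ratios of same-numbered animals correlated at -0.18 to 0.035. With them as a replicate block 0 members passed in the difference and both level comparisons. Scan batch as a fixed block was run for the difference and the level comparisons only, and as a random block for the ratios. With the fixed block, the difference between days rests on the 1 batch that held both days. One alternative, without the second array of day 21 replicate 4, was chosen after seeing the data. The members were well above background in 54.8% to 77.5% of measurements, and the number of arrays limits the precision.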
